A study of Mus musculus with 8 samples.

Results

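The genes described here were 10 genes that mark tissue macrophages: Csf1r, Cx3cr1, Spi1, Ptprc, Mrc1, Cd68, C1qb, Fcgr3, Fcer1g and Tyrobp. They were chosen by gene symbol, 10 of the 20701 symbols in the table, and where a symbol had several transcripts the most highly counted one was used. RNA-Seq of polyadenylated RNA was performed on the dissected OFT and RV (the outflow tract and the right ventricle of the heart) of mouse embryos at E10.5, each library from a single embryo. The control group (CTRL, n = 4) was wild type and the Isl1_hypo group (n = 4) was hypomorphic for Isl1, carrying the alleles Isl1-f;neo/f;neo in the study's notation. All 8 embryos had the strain label C57BL/6. The hypomorphic alleles are carried by all cells of the embryo, and the labels do not give the litter or the sex of the embryos.

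Macrophages are phagocytic cells of the innate immune system that are found in nearly every tissue. The first macrophages of the mouse embryo arise from yolk sac progenitors and colonise the organs, the heart among them, before birth. They depend on the growth factor receptor Csf1r, follow the chemokine fractalkine through Cx3cr1, and clear dying cells through scavenger, complement and Fc receptors. Their gene expression is driven by the ETS family transcription factor PU.1, the product of Spi1. Isl1, the gene changed in these embryos, encodes a LIM-homeodomain transcription factor of second heart field progenitors, which build the outflow tract and right ventricle.

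Because PU.1 binds sites with the core GAGGAA (the PU box), the promoters of the macrophage genes were searched for these letters on both strands. RefSeq promoter entries, 250 bases before to 50 bases after the transcription start on build GRCm38.p6, were used for 7 of the 10 genes; those of Csf1r, Spi1 and Tyrobp were not used here. The box was found in 5 of these 7 promoters, against 31.3% of the 27025 genes with an entry. These windows are shown because the gene of PU.1, Spi1, is itself among the 10 genes. Each window has 30 bases, is written 5′ to 3′ on the strand of the gene, and has the box in capitals. GAGGAA is the box on the strand of the gene, and TTCCTC is the same box on the opposite strand.
Ptprc: tgttttcctttaGAGGAAaattgagacgaa
C1qb: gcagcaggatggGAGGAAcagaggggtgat
Cd68: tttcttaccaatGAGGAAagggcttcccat
Fcgr3: gagtccatttccTTCCTCtttttgtagttc
Mrc1: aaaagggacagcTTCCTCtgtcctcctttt

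The Ptprc window lay at chr1:138175446-138175475 (minus strand), with the box starting 158 bases before the transcription start. The C1qb window, at chr4:136886213-136886242 (minus strand), had its box 30 bases before the start. In Fcgr3, at chr1:171059392-171059421 (minus strand), the box began 6 bases before the start. The Cd68 window was at chr11:69666378-69666407 (minus strand) and the Mrc1 window at chr2:14229367-14229396 (plus strand), with boxes 225 and 35 bases before the start. A second box was present in the Cd68 promoter and 2 more in the Mrc1 promoter. The letters were not found in the windows of Cx3cr1 and Fcer1g. A match describes the sequence only, and binding was not measured here.

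To check the genotype labels, Isl1 was examined first. Isl1 (NM_021459) measured 29.6, 61.5, 46.2 and 51.3 CPM (counts scaled to a common library size) in CTRL 1 to 4 and 12.7, 6.86, 7.71 and 11.4 CPM in Isl1_hypo 1 to 4. The 4 Isl1_hypo libraries were all below the 4 CTRL libraries, as the labels state. Isl1 fell by 2.29 on the log2 scale (SE 0.256, adjusted p = 0.0077 in edgeR's quasi-likelihood test). With the globin level or the replicate number added to the fit, the adjusted p was 0.341 and 0.0722 (edgeR).

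Libraries held 18422245 to 46678973 counts, and the count of 3 that was taken as the detection floor corresponded to 0.0641 to 0.163 CPM. The libraries differed in more than genotype. Globin transcripts made up 0.212% to 1.19% of counts in CTRL and 1.18% to 2.44% in Isl1_hypo. Globin thus differed with genotype, and a fit with the globin level as a covariate cannot fully separate them. The library Isl1_hypo 1 held 282 counts of Cdh1, 708 of Cldn6 and 111 of Esrp1, genes of epithelial cells, against at most 9 in any other library. Epithelial transcripts were also higher across the group, with sums of 94.8 to 172 CPM in CTRL and 179 to 381 CPM in Isl1_hypo over 7 genes. Of the 4 tested, 4 had an unadjusted p under 0.05 (5.69% of all genes were higher at that threshold), among them Krt8 and Krt18, keratins of simple epithelia, at 0.92 and 0.80 on the log2 scale without overlap (adjusted p = 0.147 and 0.166, edgeR; 0.00513 and 0.0109, DESeq2). Of these 4, the number under 0.05 was 2 without CTRL 1, with limma-voom or with the Y-linked covariate, and 1 with the globin covariate. Isl1_hypo 1 also stood apart in some genes of mesenchyme, with 196 CPM of Lum and 1008 CPM of Col1a1 against at most 24.6 and 533 CPM elsewhere. Its sum over 9 mesenchyme genes was 3402 CPM against at most 2684 CPM. Pdgfra, Col3a1, Postn, Twist1 and Sox9 were higher in CTRL 1 than in Isl1_hypo 1. Dcn was higher in the whole Isl1_hypo group without overlap (1.89 on the log2 scale, adjusted p = 0.0727, edgeR). The library Isl1_hypo 3 had 339 of the 13769 tested genes at 0 counts, against 43 to 80 in the other 7 libraries. Y-linked genes had 4097 to 8766 counts in CTRL 3 and Isl1_hypo 1, 3 and 4 and at most 9 in the other 4 libraries, so that male embryos were 1 of 4 in CTRL and 3 of 4 in Isl1_hypo. Values without Isl1_hypo 1 or Isl1_hypo 3, or with the Y-linked level as a covariate, are given beside some of the members.

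None of the 10 macrophage genes passed the test for a difference between the groups. All 10 passed the filter on low counts, and edgeR gave 0 genes with an adjusted p under 0.05, against 0.269% of all 13769 genes tested. Without adjustment, 0 of the 10 had p under 0.05, against 11.9% of all genes (6.17% lower and 5.69% higher in Isl1_hypo), and DESeq2 also gave 0. For 0 of the 10 genes did the CTRL and Isl1_hypo libraries separate without overlap, as 8.5% of all genes did. By the sign of the fold change, 6 genes were lower and 4 higher in Isl1_hypo, with a median log2 fold change of -0.46 beside 0.01 over all tested genes, of which 49.1% were lower. The median of the 10 was -0.71 without Isl1_hypo 1 (1 gene, Csf1r, then had an unadjusted p under 0.05), -0.24 without Isl1_hypo 3, 0.081 without CTRL 4, and -0.72 with the Y-linked covariate. The summed level of the 10 genes was 21.6 ± 9.02 CPM in CTRL and 16.4 ± 8.39 CPM in Isl1_hypo (SD, n = 4 each). In bulk tissue, fewer macrophages and less RNA per macrophage cannot be told apart.

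**Figure D1:**
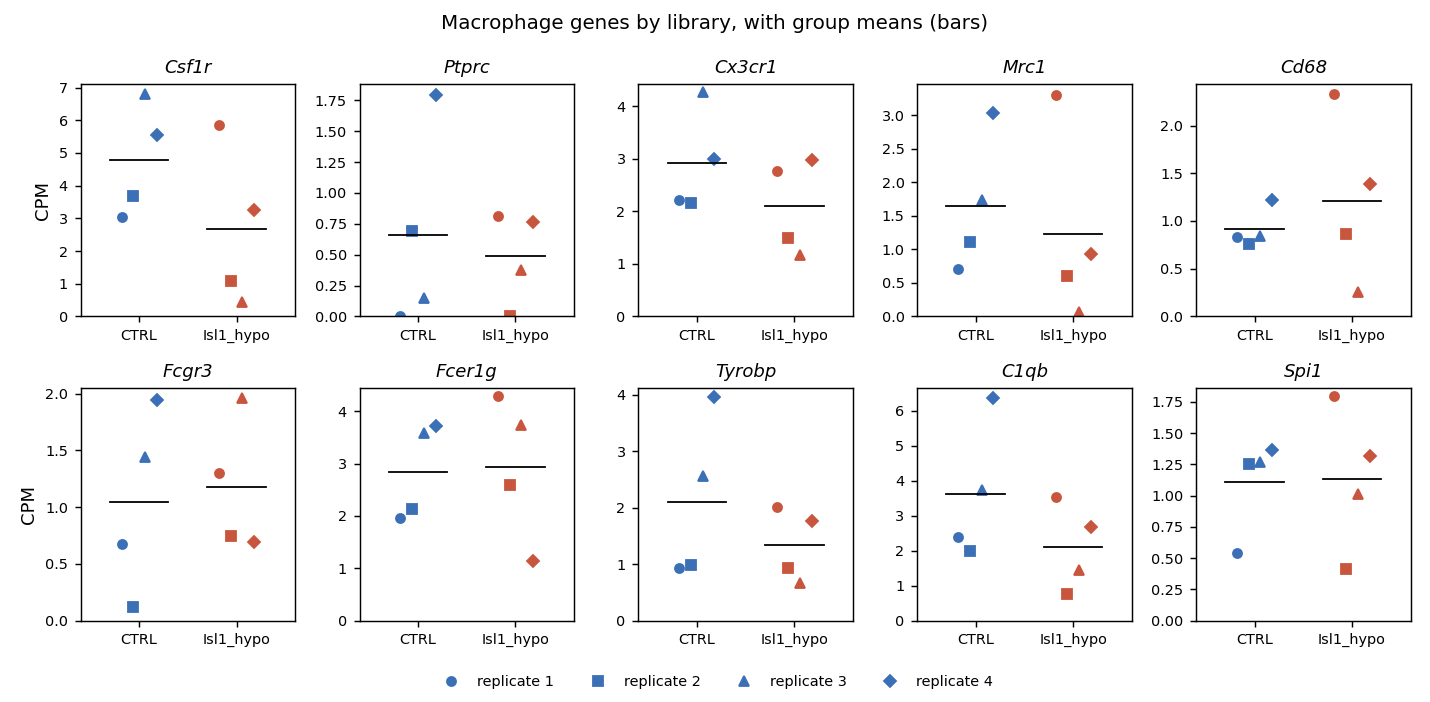
Level of each macrophage gene (y axis, CPM, scaled separately for each gene) in the 4 CTRL libraries (blue) and the 4 Isl1_hypo libraries (red), with symbols for replicates 1 to 4 and a horizontal bar at each group mean. The groups overlap in every panel; for Csf1r the CTRL libraries lie between 3.04 and 6.80 CPM and the Isl1_hypo libraries between 0.443 and 5.87 CPM.

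Csf1r encodes the receptor for the growth factors CSF1 and IL-34, which macrophages need to survive. It had the largest absolute log2 fold change of the 10 genes, but the Isl1_hypo libraries were divided among themselves. Csf1r (NM_001037859) counts were 95, 150, 274 and 260 in CTRL 1 to 4 and 108, 29, 14 and 94 in Isl1_hypo 1 to 4. In CPM, these were 3.04, 3.69, 6.80 and 5.56 in CTRL and 5.87, 1.09, 0.443 and 3.25 in Isl1_hypo. Isl1_hypo 2 and 3 were below every CTRL library, whereas Isl1_hypo 1 was above all CTRL libraries but CTRL 3. Between the groups the log2 fold change was -0.86 (SE 0.625, 95% interval -2.23 to 0.51), with an unadjusted p of 0.194 and an adjusted p of 0.605 in edgeR. The value depended on which mutant library was included. Without Isl1_hypo 1 it was -1.58 (unadjusted p = 0.0228, adjusted p = 0.297, edgeR), and without Isl1_hypo 3 it was -0.50 (adjusted p = 0.792, edgeR). With the Y-linked covariate it was -1.51 (adjusted p = 0.808, edgeR). Csf1r lies on chromosome 18 at positions 61265226 to 61291803 (mm9, plus strand). In the annotation, 871 of the 5229 exon bases of the gene also belong to Hmgxb3 on the other strand, and strand was ignored in counting. The counted transcript has 3851 bases, and whether the shared bases lie in it, or added reads of Hmgxb3, was not tested. Hmgxb3 measured 33.8 ± 6.68 CPM in CTRL and 28.2 ± 6.66 CPM in Isl1_hypo (SD, n = 4).

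Cx3cr1, the receptor for fractalkine, was among the steadier of the 10 genes. Cx3cr1 (NM_009987; chromosome 9, 119957811 to 119977400, mm9, minus strand) had 69, 88, 172 and 140 counts in CTRL 1 to 4 and 51, 40, 37 and 86 in Isl1_hypo 1 to 4. The corresponding levels were 2.21, 2.17, 4.27 and 2.99 CPM in CTRL and 2.77, 1.5, 1.17 and 2.98 CPM in Isl1_hypo. As for Csf1r, Isl1_hypo 2 and 3 lay below the CTRL range and the other 2 mutant libraries within it. Its log2 fold change was -0.47 (SE 0.415, 95% interval -1.38 to 0.44, adjusted p = 0.677, edgeR). It was -0.83 with the Y-linked covariate (adjusted p = 0.853, edgeR), -0.27 without Isl1_hypo 3 (adjusted p = 0.882, edgeR) and -0.23 without CTRL 3 (adjusted p = 0.896, edgeR).

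The ligands of these receptors were examined next. Csf1, the main ligand of Csf1r, measured 9.55 ± 1.38 CPM in CTRL and 11.9 ± 2.0 CPM in Isl1_hypo, a log2 fold change of 0.32 (adjusted p = 0.527, edgeR). The second ligand, Il34, was close to undetected, with at most 11 counts in any library, and was removed by the filter. Cx3cl1, which encodes fractalkine, had 726, 751, 636 and 887 counts in CTRL 1 to 4 and 195, 427, 266 and 239 in Isl1_hypo 1 to 4. Its mean level was 19.1 ± 3.08 CPM in CTRL and 10.8 ± 3.62 CPM in Isl1_hypo. Cx3cl1 was estimated at -0.82 on the log2 scale (SE 0.228), with an unadjusted p of 0.0039 that did not pass the adjustment (adjusted p = 0.201, edgeR). For Cx3cl1 DESeq2 gave an adjusted p of 0.0385 and limma-voom 0.182, and with the globin covariate it was estimated at -0.62 (unadjusted p = 0.0796, adjusted p = 0.999, edgeR).

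Spi1, the gene for PU.1, had nearly equal means in the groups. Spi1 (NM_011355; chromosome 2, 90922547 to 90955913, mm9, plus strand) had 17, 51, 51 and 64 counts in CTRL 1 to 4 and 33, 11, 32 and 38 in Isl1_hypo 1 to 4. This gave 0.544, 1.25, 1.27 and 1.37 CPM in CTRL and 1.79, 0.412, 1.01 and 1.31 CPM in Isl1_hypo. Each group had 1 low library, CTRL 1 and Isl1_hypo 2. The log2 fold change was 0.02, and its 95% interval, from -1.22 to 1.26, reaches more than 1 log2 unit in each direction (adjusted p = 0.992, edgeR). Its sign turned without Isl1_hypo 1 (-0.28, adjusted p = 0.873, edgeR) and with the Y-linked covariate (-0.60, adjusted p = 0.962, edgeR).

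Ptprc encodes the tyrosine phosphatase CD45, carried by nearly all white blood cells, and was the most weakly detected of the 10 genes. Ptprc (NM_011210; chromosome 1, 139959438 to 140071882, mm9, minus strand) counted 0, 28, 6 and 84 in CTRL 1 to 4 and 15, 0, 12 and 22 in Isl1_hypo 1 to 4. For the count of 0 in CTRL 1 and in Isl1_hypo 2, the 95% Poisson interval reaches 3.69 counts. The floor of 3 counts is 0.096 CPM in CTRL 1 and 0.112 CPM in Isl1_hypo 2. CTRL 4 held most of the reads of its group, with 1.80 CPM against at most 0.689 CPM in the other 3 libraries. The estimated log2 fold change was -0.46 (SE 1.19, adjusted p = 0.910, edgeR), with a 95% interval from -3.07 to 2.15. Without CTRL 4 it was 0.76 (adjusted p = 0.879, edgeR). It was -1.38 with limma-voom (adjusted p = 0.722) and -1.37 with the globin covariate (adjusted p = 0.999, edgeR).

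The scavenger and lysosomal genes Mrc1 and Cd68 showed their highest levels in Isl1_hypo 1 and their lowest in Isl1_hypo 3. Mrc1 encodes the mannose receptor CD206 and Cd68 a glycoprotein of macrophage lysosomes. Mrc1 (NM_008625; chromosome 2, 14151041 to 14253684, mm9, plus strand) had 22, 45, 70 and 142 counts in CTRL 1 to 4 and 61, 16, 2 and 27 in Isl1_hypo 1 to 4. In CPM the CTRL libraries measured 0.704, 1.11, 1.74 and 3.04 and the Isl1_hypo libraries 3.31, 0.600, 0.0632 and 0.934. The 2 counts in Isl1_hypo 3 were below the floor of 3 counts, which is 0.0948 CPM in that library. For Mrc1 the log2 fold change was -0.46 (SE 0.854, 95% interval -2.33 to 1.42, adjusted p = 0.864, edgeR). It was -1.63 without Isl1_hypo 1 (adjusted p = 0.405, edgeR), -0.055 without Isl1_hypo 3 (adjusted p = 0.992, edgeR) and 0.02 without CTRL 4 (adjusted p = 0.997, edgeR). With the Y-linked covariate Mrc1 was estimated at -0.84 (adjusted p = 0.965, edgeR).

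Cd68 (NM_001291058; chromosome 11, 69477715 to 69479655, mm9, minus strand) was the most even gene among the controls. It had 26, 31, 34 and 57 counts in CTRL 1 to 4 and 43, 23, 8 and 40 in Isl1_hypo 1 to 4. The CTRL levels were 0.832, 0.763, 0.844 and 1.22 CPM, a coefficient of variation (CV) of 22.5% where counting error alone gives 16.4%. The Isl1_hypo levels, 2.34, 0.862, 0.253 and 1.38 CPM, reached further in both directions, with a CV of 73%. Its log2 fold change was 0.38 (SE 0.633, adjusted p = 0.844, edgeR), and -0.14 without Isl1_hypo 1 (adjusted p = 0.947, edgeR) or 0.73 without Isl1_hypo 3 (adjusted p = 0.681, edgeR).

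C1qb encodes a chain of complement component C1q, which macrophages release and which tags cell debris for removal. C1qb (NM_009777; chromosome 4, 136436044 to 136442102, mm9, minus strand) had 75, 81, 150 and 298 counts in CTRL 1 to 4 and 65, 20, 46 and 77 in Isl1_hypo 1 to 4. Levels were 2.40, 1.99, 3.73 and 6.37 CPM in CTRL and 3.53, 0.750, 1.45 and 2.66 CPM in Isl1_hypo. CTRL 3 and 4 were above every Isl1_hypo library, while CTRL 1 and 2 lay within the mutant range. The log2 fold change was -0.80 (SE 0.518, 95% interval -1.93 to 0.34, adjusted p = 0.565, edgeR). Without CTRL 4 it was -0.37 (adjusted p = 0.853, edgeR) and without Isl1_hypo 1 it was -1.16 (adjusted p = 0.374, edgeR). With the Y-linked covariate C1qb was estimated at -1.35 (adjusted p = 0.840, edgeR).

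The other chains of C1q, encoded by C1qa and C1qc, were set beside C1qb because the 3 chains assemble into 1 protein. C1qa had 52, 83, 151 and 283 counts in CTRL 1 to 4 and 42, 38, 7 and 51 in Isl1_hypo 1 to 4, -1.26 on the log2 scale (edgeR adjusted p = 0.462). C1qc had 63, 60, 130 and 231 counts in CTRL 1 to 4 and 62, 19, 0 and 38 in Isl1_hypo 1 to 4, -1.14 on the log2 scale (edgeR adjusted p = 0.638). In the CTRL libraries the 3 genes had similar counts. In Isl1_hypo 3 they came apart, with 46 counts of C1qb beside 7 of C1qa and 0 of C1qc. Without Isl1_hypo 3, C1qa was estimated at -0.90 and C1qc at -0.72 on the log2 scale (adjusted p = 0.545 and 0.737, edgeR). Without Isl1_hypo 1, the values were -1.58 for C1qa and -2.11 for C1qc (adjusted p = 0.349 and 0.353, edgeR). The exact Poisson interval of the 46 counts was 33.7 to 61.4, for counting error only. The part of that library's many genes at 0 in this was not tested.

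Fcgr3 encodes a receptor for the constant part of immunoglobulin G, and it varied more among the controls than among the mutants. Fcgr3 (NM_010188; chromosome 1, 172981300 to 172995066, mm9, minus strand) had 21, 5, 58 and 91 counts in CTRL 1 to 4 and 24, 20, 62 and 20 in Isl1_hypo 1 to 4. In CPM the values were 0.672, 0.123, 1.44 and 1.95 in CTRL and 1.3, 0.750, 1.96 and 0.692 in Isl1_hypo. Isl1_hypo 3, the lowest mutant library for Csf1r, Mrc1 and Cd68, was the highest for Fcgr3. The estimated log2 fold change was 0.17 (SE 0.729, adjusted p = 0.949, edgeR). The direction turned without Isl1_hypo 3 (-0.21, adjusted p = 0.965, edgeR), without CTRL 2 (-0.21, adjusted p = 0.937, edgeR), and with the Y-linked (-0.24, adjusted p = 0.989, edgeR) or globin covariate (-1.34, adjusted p = 0.999, edgeR). Fcgr3 shares near-identical sequence with Fcgr2b, so its counts are uncertain to the extent that reads of the pair were exchanged; Fcgr2b itself had at most 19 counts in any library.

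Fcer1g and Tyrobp encode small membrane adaptors whose cytoplasmic ITAM motifs pass the signal of Fc and other receptors to the kinase Syk. Fcer1g (NM_010185; chromosome 1, 173159703 to 173164496, mm9, minus strand) had 61, 87, 144 and 174 counts in CTRL 1 to 4 and 79, 69, 118 and 33 in Isl1_hypo 1 to 4. This corresponded to 1.95, 2.14, 3.58 and 3.72 CPM in CTRL and 4.29, 2.59, 3.73 and 1.14 CPM in Isl1_hypo. Isl1_hypo 4, which was within or above the CTRL range for all the other members, was the lowest library for Fcer1g. Its log2 fold change was 0.04 (SE 0.433, 95% interval -0.91 to 0.99, adjusted p = 0.981, edgeR), and it was -0.20 without Isl1_hypo 1 and -0.11 without Isl1_hypo 3 (adjusted p = 0.881 and 0.971, edgeR).

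Tyrobp (NM_011662; chromosome 7, 31198807 to 31202596, mm9, plus strand) counted 29, 40, 103 and 185 in CTRL 1 to 4 and 37, 25, 21 and 51 in Isl1_hypo 1 to 4. Its levels were 0.928, 0.984, 2.56 and 3.95 CPM in CTRL and 2.01, 0.937, 0.664 and 1.76 CPM in Isl1_hypo. CTRL 3 and 4 were above all mutant libraries, and CTRL 1 and 2 were below Isl1_hypo 1 and 4. The log2 fold change was -0.66 (SE 0.579, 95% interval -1.93 to 0.61, adjusted p = 0.676, edgeR). Without CTRL 4 it was -0.16 (adjusted p = 0.954, edgeR).

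**Figure D2:**
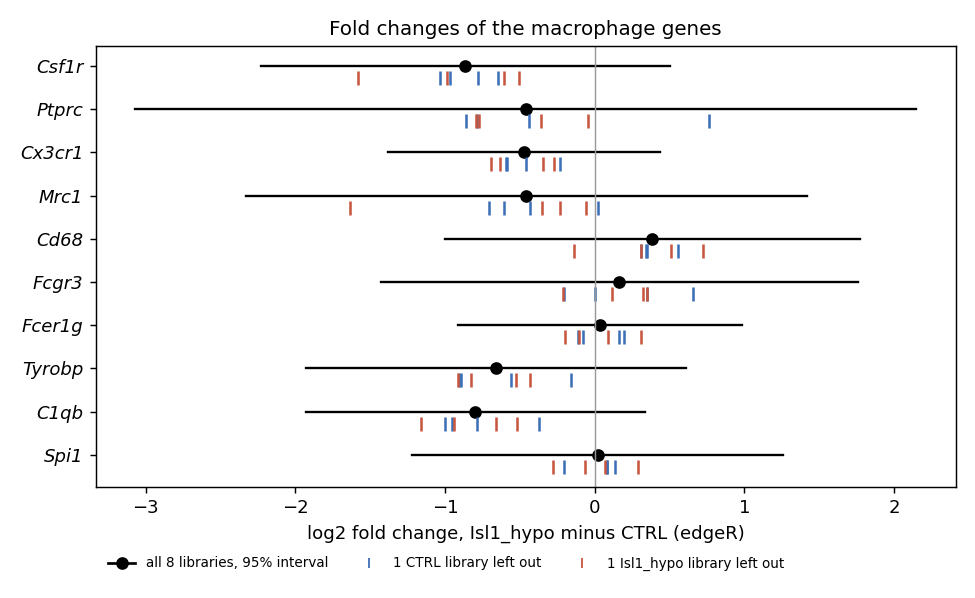
Log2 fold change of each macrophage gene, Isl1_hypo minus CTRL (x axis), from edgeR with all 8 libraries (black point with its 95% interval) and with 1 CTRL library (blue tick) or 1 Isl1_hypo library (red tick) left out. Every interval crosses 0, and for 6 genes the ticks lie on both sides of 0. The estimate of Csf1r runs from -1.58 to -0.50.

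Compared per kilobase of transcript, which allows levels of different genes to be set side by side, the small adaptors and the complement chain were the most abundant. Fcer1g averaged 4.44 ± 1.68 CPM per kb, Tyrobp 3.09 ± 1.99 and C1qb 2.71 ± 1.64 (SD over all 8 libraries). A lower set followed, Csf1r at 0.965 ± 0.588, Cd68 at 0.857 ± 0.495, Fcgr3 at 0.825 ± 0.489, Spi1 at 0.774 ± 0.313 and Cx3cr1 at 0.669 ± 0.260 CPM per kb. Mrc1 at 0.272 ± 0.222 and Ptprc at 0.110 ± 0.114 CPM per kb came last. Within the first 3 and within the next 5, neighbours differed by less than their spread over the libraries. The last pair differed by less than the spread of Mrc1 but by more than that of Ptprc. The lengths are those of the single transcript kept for each gene.

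The spread within a group was wide beside what counting alone gives. For Csf1r the CV was 36.1% in CTRL and 92.1% in Isl1_hypo, where counting error gives 7.17% and 12.8%. In edgeR, 6 of the 10 genes had their own biological coefficient of variation above the trend for their expression level, against 32.8% of all tested genes. These were Csf1r, Ptprc, Mrc1, Fcgr3, Tyrobp and C1qb. With 4 embryos in each group, the narrowest 95% interval was that of Cx3cr1 (-1.38 to 0.44) and the widest that of Ptprc (-3.07 to 2.15).

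Part of this spread was shared between the genes, library by library. Summed over the 10 genes, the level was 13.3, 14.9, 26.4 and 32.0 CPM in CTRL 1 to 4 and 28.02, 9.48, 11.1 and 16.9 CPM in Isl1_hypo 1 to 4. CTRL 3 and 4 and Isl1_hypo 1 thus had the highest sums of these 10 genes. Other genes linked to macrophages did not all share this order, as the coefficients below show. The sum rests on 415 to 1495 counts in CTRL and 253 to 516 counts in Isl1_hypo. Isl1_hypo 3 departed from the shared order, being lowest of its group for Csf1r, Cx3cr1, Mrc1, Cd68 and Tyrobp and highest for Fcgr3.

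Likeness to the 10 genes was measured as the Pearson coefficient, over the 8 libraries, between the log2 CPM of a gene and the mean of the standardised log2 CPM of the 10, each centred within its group. Among 12631 candidates with a mean of at least 1 CPM, the 5 most alike were Bre (0.960), Nfkbia (0.951), Fuz (0.935), Pot1b (0.933) and Anapc2 (0.925), none of them a gene of the myeloid lists. Nfkbia encodes the NF-kappaB inhibitor IκBα and Anapc2 a subunit of the anaphase-promoting complex. The tested genes of the myeloid lists spanned a wide range, from Laptm5 (0.875), C5ar1 (0.865), C3ar1 (0.823) and Cebpb (0.812) to Cd53 (-0.681), Tlr4 (-0.653) and Lcp1 (-0.591). Of these, C5ar1 and Cebpb had means of 0.859 and 0.753 CPM, under the limit set for the candidates. The epithelial gene Epcam reached 0.887, and its 181 counts in Isl1_hypo 1 stand against at most 54 in the other libraries. Col1a2, a collagen gene of mesenchyme that was also highest in Isl1_hypo 1, reached 0.779. All points share the same 8 libraries with their depth and composition, and the coefficients are a description.

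**Figure D3:**
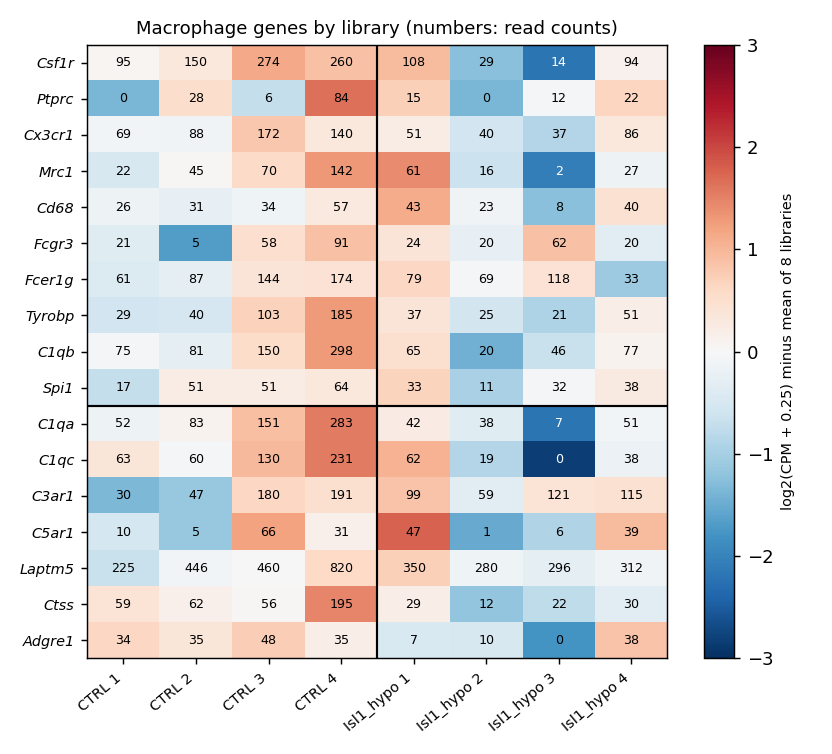
Levels of the 10 macrophage genes (above the horizontal line) and 7 further macrophage genes (below it, chosen after their values were seen) in the 8 libraries; colour gives log2(CPM + 0.25) minus the mean of the 8 libraries, and the printed numbers are read counts. CTRL 3, CTRL 4 and Isl1_hypo 1 are warm for most of the genes shown. Isl1_hypo 3 ranges from 0 counts of C1qc to 118 of Fcer1g and 121 of C3ar1. The 7 further genes all have positive coefficients of likeness to the 10 (0.344 to 0.875). Macrophage-linked genes with negative coefficients, down to -0.681 for Cd53, are not shown.

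To place the 10 genes among other genes linked to macrophages, many of which other cells of the tissue also express, 5 further lists with 69 genes were examined: ligands, myeloid transcription factors, complement and phagocytic receptors, Fc receptor and ITAM signalling, and other macrophage genes. Of these, 47 passed the filter, 30 with a higher and 17 with a lower estimate in Isl1_hypo, and their median log2 fold change was 0.11. In edgeR a single gene, Cd36, had an adjusted p under 0.05, and DESeq2 gave 4 (Cd36, Maf, Cx3cl1 and Lyz2) and limma-voom 3 (Cd36, Maf and Lyz2). With 1 library left out, edgeR gave 0 in 7 of the 8 fits and 1 without Isl1_hypo 3. Without adjustment 5 genes had p under 0.05 in the higher and 3 in the lower direction, 17% of those tested beside 11.9% of all genes. The counts shifted when Isl1_hypo 1 was left out. Without it, 51 genes were tested, 24 with a higher and 27 with a lower estimate and a median of -0.039, and 4 in the higher and 9 in the lower direction had an unadjusted p under 0.05 (6.49% and 7.36% of all 13939 genes tested in that fit).

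Cd36 encodes a scavenger receptor that also carries fatty acids and is made by endothelial and muscle cells as well as macrophages. It rose from 36.2 ± 2.48 CPM in CTRL to 63.2 ± 9.36 CPM in Isl1_hypo, 0.80 on the log2 scale (adjusted p = 0.0342 in edgeR, SE 0.130). The libraries of the groups did not overlap. The adjusted p was 0.0325 to 0.127 with 1 library left out, under 0.05 only without Isl1_hypo 3, and 0.218 with the Y-linked and 0.997 with the globin covariate. Of the other 8 tested genes of complement and phagocytosis, 5 were higher and 3 lower, none with an unadjusted p under 0.05 in edgeR. Without Isl1_hypo 1 the list had 5 higher and 5 lower estimates, and C1qa and C1qc had unadjusted p of 0.0429 and 0.0456 in the lower direction (adjusted p = 0.349 and 0.353, edgeR). The most abundant of them were Axl, a receptor for dying cells, at 119 ± 9.36 and 130 ± 21.2 CPM, and Stab1, a scavenger receptor, at 47.4 ± 7.57 and 44.9 ± 3.89 CPM in CTRL and Isl1_hypo.

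Among 9 tested myeloid transcription factors, 5 were higher and 4 lower, and only Maf had an unadjusted p under 0.05, as did 11.9% of all genes. Maf counts were 42, 70, 43 and 115 in CTRL 1 to 4 and 89, 123, 141 and 147 in Isl1_hypo 1 to 4. In CPM this was 1.65 ± 0.603 against 4.75 ± 0.274 without overlap, a log2 fold change of 1.52 that missed the adjusted threshold (adjusted p = 0.0993, edgeR) but passed it with DESeq2 (adjusted p = 0.00137) and limma-voom (adjusted p = 0.0268). With 1 library left out, the adjusted p of Maf was 0.0653 to 0.268 in edgeR. Irf8, which acts in macrophage differentiation, was estimated at -0.14 on the log2 scale (adjusted p = 0.914, edgeR).

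In the Fc receptor and ITAM list, 8 of the 12 tested genes were higher and 4 lower. Without Isl1_hypo 1 these were 6 and 6. At an unadjusted p under 0.05, 1 was then higher and 2 lower, beside 6.49% and 7.36% of all genes in that fit. Lcp1, an actin-bundling protein of blood cells, was higher without overlap of the groups, at 10.8 ± 1.71 and 18.02 ± 5.30 CPM (log2 fold change 0.74, unadjusted p = 0.0055, adjusted p = 0.222, edgeR). The kinase gene Syk measured 13.6 ± 2.38 and 15.3 ± 2.53 CPM, a log2 fold change of 0.17 (adjusted p = 0.745, edgeR). The leukocyte gene Laptm5, a lysosomal membrane protein, measured 11.8 ± 4.27 and 12.4 ± 4.44 CPM (log2 fold change 0.07, adjusted p = 0.948, edgeR).

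The remaining list held 15 tested genes, 10 higher and 5 lower. Without Isl1_hypo 1 it held 17, of which 7 were higher and 10 lower with a median of -0.22. In that fit 1 higher and 4 lower genes had an unadjusted p under 0.05, beside 6.49% and 7.36% of all genes. Lyz2, which encodes lysozyme M, had 294, 291, 111 and 321 counts in CTRL 1 to 4 and 255, 460, 634 and 762 in Isl1_hypo 1 to 4. Its mean was 6.55 ± 2.77 CPM in CTRL and 19.4 ± 5.30 CPM in Isl1_hypo, without overlap in CPM (log2 fold change 1.57, adjusted p = 0.0824, edgeR). The adjusted p of Lyz2 was 0.000348 with DESeq2 and 0.0193 with limma-voom. Ctss, the gene for the lysosomal protease cathepsin S, lay in the other direction, with 59, 62, 56 and 195 counts in CTRL 1 to 4 and 29, 12, 22 and 30 in Isl1_hypo 1 to 4 (log2 fold change -1.27, unadjusted p = 0.0382, adjusted p = 0.386, edgeR). Tmem119, which marks microglia and is also made by bone-forming cells, was lower without overlap, at 20.9 ± 1.69 and 14.8 ± 3.37 CPM (log2 fold change -0.50, adjusted p = 0.308, edgeR). Adgre1, the gene of the macrophage antigen F4/80, had 34, 35, 48 and 35 counts in CTRL 1 to 4 and 7, 10, 0 and 38 in Isl1_hypo 1 to 4 (log2 fold change -0.90, adjusted p = 0.711, edgeR). For Adgre1 the value was -1.98 without Isl1_hypo 4 (adjusted p = 0.479, edgeR) and -0.47 without Isl1_hypo 3 (adjusted p = 0.867, edgeR).

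The tissue label was checked with markers of other blood cells. Of 12 granulocyte and mast cell genes, 3 passed the filter (Mpo, Prtn3 and Ctsg, which encode granule proteins), and of 10 lymphoid genes 1 did, Cd79b. The summed level of the granulocyte and mast cell genes was 2.14 to 7.55 CPM in CTRL and 3.75 to 8.69 CPM in Isl1_hypo. Of 7 tested blood progenitor genes, 3 were higher and 4 lower, with a median log2 fold change of -0.089. Gfi1b (2.15, without overlap) and Tal1 (0.89) were higher at an unadjusted p under 0.05, as were 5.69% of all genes (adjusted p = 0.178 and 0.201, edgeR). DESeq2 gave 2 genes of this list an adjusted p under 0.05. S100a8, S100a9, Fcer1a and Ncr1 had 0 counts in all 8 libraries, and Cd3e and Rag1 had at most 3 and 1. Ngp, a granule protein of neutrophils, had 86 counts in CTRL 4 and 0 in the other 7 libraries. The macrophage genes Cd163, Marco and Ms4a7 were also at 0 in every library, and Ccr2, a receptor of monocytes, had at most 14 counts. Cardiomyocyte transcripts were abundant in all libraries, with a summed level of 36020 to 44470 CPM in CTRL and 36950 to 45460 CPM in Isl1_hypo over 8 genes. Of these 4 had higher and 4 lower estimates, with a median log2 fold change of -0.061. At an unadjusted p under 0.05, 0 were higher and 3 lower (6.17% of all genes): Ttn (-0.90 on the log2 scale, adjusted p = 0.173 in edgeR and 0.0055 in DESeq2), Myh7 (-0.49, adjusted p = 0.165 in edgeR and 0.0121 in DESeq2) and Myh6 (-0.31, adjusted p = 0.391, edgeR), the first and second without overlap.

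Red cell genes had higher values in Isl1_hypo. Of 11 tested erythroid genes, 10 had higher estimates in Isl1_hypo, 9 of them with an unadjusted p under 0.05 (5.69% of all genes) and 1 with an adjusted p under 0.05 in edgeR, and the median log2 fold change was 1.59. The count at an adjusted p under 0.05 was 6 with DESeq2, 5 with limma-voom, 0 with either covariate or the replicate block, and, with 1 library left out, 0 without CTRL 1, 2 or 3 and up to 5 without CTRL 4. Their summed level was 172 to 276 CPM in CTRL and 298 to 479 CPM in Isl1_hypo. Epb42, a protein of the red cell membrane, rose from 2.12 ± 0.445 to 10.4 ± 4.04 CPM, by 2.28 on the log2 scale (edgeR adjusted p = 0.0172). Its adjusted p was 0.0126 to 0.0733 with 1 library left out, above 0.05 without CTRL 1, 2 or 3, and 0.157 with the Y-linked and 0.997 with the globin covariate. Globin is itself a red cell product, so that covariate is not independent of these genes. Of 11 megakaryocyte and platelet genes, 10 had higher estimates, with a median of 0.79, and edgeR called 0 of them at an adjusted p under 0.05, while 4 in the higher and 1 in the lower direction had an unadjusted p under 0.05 (5.69% and 6.17% of all genes). Without Isl1_hypo 1, in which this list summed to 193.7 CPM against at most 125 CPM in the other libraries, 8 were higher and 3 lower, 0 and 1 of them with an unadjusted p under 0.05, and the median was 0.57. Pf4, made by platelets and by some macrophages, measured 30.6 ± 10.2 and 59.6 ± 36.7 CPM (log2 fold change 0.96, adjusted p = 0.339, edgeR). Isl1_hypo 1 held 111.5 CPM of Pf4, and without it the log2 fold change of Pf4 was 0.46 (adjusted p = 0.487, edgeR). Of 12 endothelial genes 9 had lower estimates, beside 49.1% of all genes. Among them were Pecam1 at -0.58 and Cdh5 at -0.54 on the log2 scale (adjusted p = 0.170 and 0.241, edgeR). DESeq2 gave Pecam1 an adjusted p of 0.0205. The part of the red cell and other markers in the values of the macrophage genes was not tested beyond the following fit. With Isl1_hypo 1 left out the erythroid median was 1.49, with 9 genes at an unadjusted p under 0.05. When the fit included the globin level, the 10 macrophage genes had a median log2 fold change of -0.91. In that fit 1 of them had an unadjusted p under 0.05, as did 3.94% of all genes (1.77% lower): C1qb, at -1.48 on the log2 scale (edgeR adjusted p = 0.999).

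**Figure D4:**
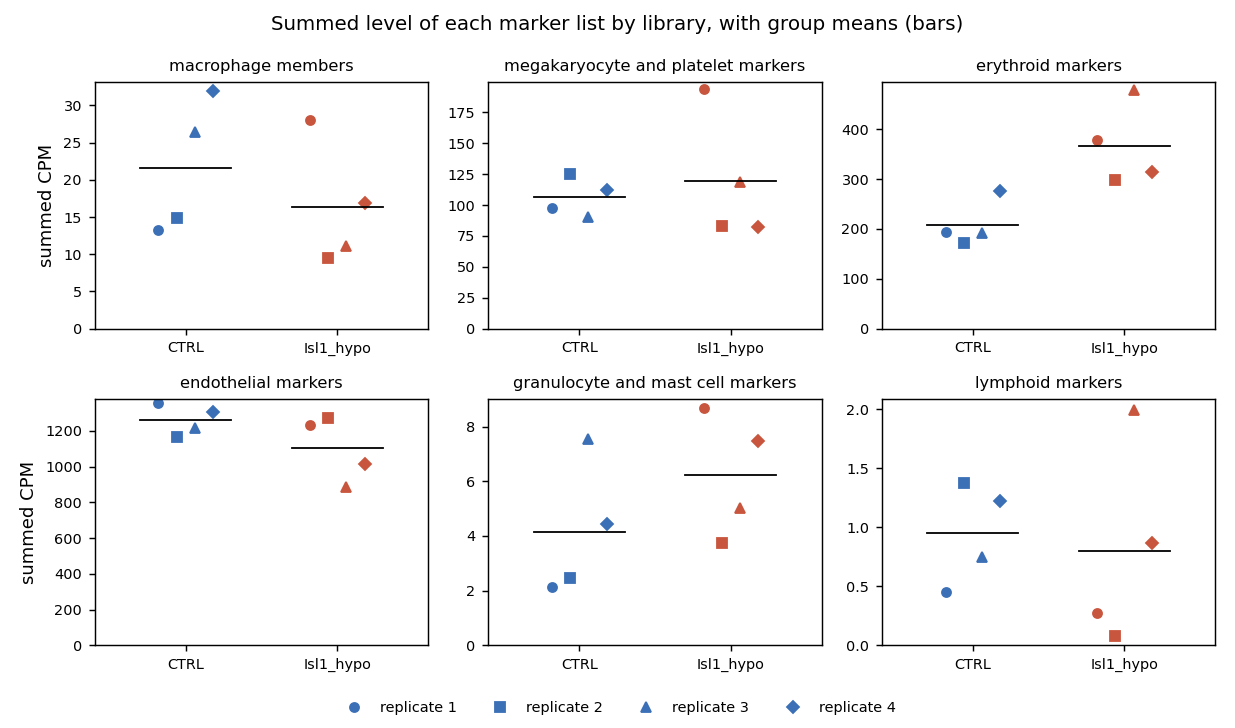
Summed level of each marker list (y axis, CPM, starting at 0 and scaled separately for each list) in the 4 CTRL (blue) and 4 Isl1_hypo (red) libraries, with symbols for replicates 1 to 4 and a bar at each group mean. The erythroid sums do not overlap (172 to 276 CPM in CTRL, 298 to 479 CPM in Isl1_hypo), whereas the sums of the 10 macrophage genes do (13.3 to 32.0 and 9.48 to 28.02 CPM).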

How the data were processed

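Polyadenylated RNA from 8 single embryos was sequenced on BGISEQ-500. The authors aligned reads with STAR to mm9, used HOMER to count exon reads of both strands for each RefSeq transcript, and deposited raw counts for 31507 transcripts; versions are not given in the sources used here. The RPKM values and the DESeq2 comparison (mean signal, log2 fold change, its error, statistic and p-values) that the authors deposited beside the counts were not used. The CTR and MUT columns were matched to the CTRL and Isl1_hypo labels by group and replicate number.

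In R 4.3.3, the most highly counted transcript was kept for each of 20701 symbols. filterByExpr of edgeR 4.0.16 (minimum count 10) left 13769 genes, libraries were scaled by TMM, and groups were compared with glmQLFit and glmQLFTest, with Benjamini-Hochberg adjustment over all genes. The words rose and fell are used for an adjusted p under 0.05. The standard error is the size of the log2 fold change divided by the square root of F. The script was tested on simulated counts. Intervals are 95%, and the floor of 3 counts and the Poisson intervals hold for counting error alone, as no molecular identifiers were used.

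Gene positions are those of the mm9 annotation, and promoter sequences with their positions are RefSeq's on GRCm38.p6. The members and the gene lists were chosen with earlier results of these data known. From each further macrophage list the text names genes with an adjusted p under 0.05, genes without overlap and an unadjusted p under 0.05, and some of the most abundant. Any other gene, of these or of the remaining lists, was named after its values were seen. Alternatives were RLE and upper-quartile scaling, DESeq2 1.42.0, limma-voom (limma 3.58.1), other filters and transcripts, a replicate block, globin and Y-linked covariates, and leaving out each library; the further lists were refitted under these alternatives after their values were seen. Samples with the same replicate number did not deviate together (correlations -0.0209 to 0.0219).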

Additional observations from a re-analysis of the deposited data

Results flagged for a closer look

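One value stood apart within its group. Spi1 measured 0.544 CPM in CTRL 1, a count of 17, against 1.25 to 1.37 CPM in the other 3 CTRL libraries, which put it beyond Dixon's 95% limit for 4 samples. It was 1 of 24 groups of 4 libraries examined, and chance alone puts about 1.2 of 24 past that limit. Without CTRL 1 the log2 fold change of Spi1 was -0.21 (adjusted p = 0.923, edgeR) in place of 0.02.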

How the results depend on the processing

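Under 20 alternatives, 8 of which left out 1 library, none of the 196 values of the macrophage genes had an adjusted p under 0.05. Isl1 stayed lower throughout (-2.46 to -2.14 with 1 library left out) but missed the threshold with the globin covariate (-2.29, adjusted p = 0.341, edgeR) and with the replicate block (-2.29, adjusted p = 0.0722, edgeR). The 37 genes with an adjusted p under 0.05 became 319 with DESeq2, 201 with limma-voom, 3 with the Y-linked covariate, and 4 to 48 with 1 library left out. They became 0 with the globin covariate and 0 with the replicate block in edgeR, where 543 and 1582 genes had an unadjusted p under 0.05; the replicate numbers are shared labels only. Macrophage genes with an unadjusted p under 0.05 numbered 1 with limma-voom (Csf1r, -1.20, adjusted p = 0.287), 1 with the globin covariate, and 0 to 1 with 1 library left out. The median of the 10 genes ran from -0.71 to 0.081 with 1 library left out, the highest value being that without CTRL 4. With all libraries kept it was -0.72 with the Y-linked covariate, -0.91 with the globin covariate and -0.29 with the replicate block, beside -0.46. The Y-linked covariate moved Csf1r from -0.86 to -1.51, Cx3cr1 from -0.47 to -0.83 and C1qb from -0.80 to -1.35, and the globin covariate moved Tyrobp from -0.66 to -1.47. Among single genes 23 values changed sign, all without passing the adjusted test. The replicate block gave 0.00096 for Ptprc, -0.031 for Fcer1g and -0.076 for Spi1; the globin covariate -1.34 for Fcgr3, -0.50 for Fcer1g and -0.26 for Spi1; the Y-linked covariate -0.24, -0.15 and -0.60 for the same 3; and limma-voom -0.18 for Fcer1g and -0.48 for Spi1. With 1 library left out, values ran from -0.86 to 0.76 for Ptprc, -1.63 to 0.025 for Mrc1, -0.14 to 0.73 for Cd68, -0.21 to 0.66 for Fcgr3, -0.20 to 0.31 for Fcer1g and -0.28 to 0.29 for Spi1. The cause was not tested. A minimum of 10 counts in every library left 6 of the 10 genes. At these depths, levels under 0.163 CPM in the shallowest library could not be told from 0, and no p-value covers more than the spread between these embryos.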

Other observations

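Some macrophage genes were too weakly expressed to pass the filter on low counts. These 22 genes of the 5 further lists were looked at after the other results were known. Of them 3 were at 0 in every library, 15 had a lower and 4 a higher mean in Isl1_hypo. Itgam, the integrin chain CD11b of myeloid cells, had 7, 22, 44 and 23 counts in CTRL 1 to 4 and 1, 0, 0 and 0 in Isl1_hypo 1 to 4. Its groups did not overlap, as held for 1 of the 22 genes, for 7.12% of all 17117 genes in a fit without the filter and for 1.43% of the 3348 that the filter removes; it is named after its values were seen. In that fit, Itgam had an unadjusted p of 0.00156 and an adjusted p of 0.159 in edgeR, where 5.95% of all 17117 genes were lower at an unadjusted p under 0.05.

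Cybb, which encodes the large subunit of the phagocyte NADPH oxidase, had 53, 4, 26 and 67 counts in CTRL 1 to 4 and 4, 0, 0 and 7 in Isl1_hypo 1 to 4. The groups overlapped, and the fit without the filter gave an unadjusted p of 0.0247 and an adjusted p of 0.370 (edgeR). The IgG receptor gene Fcgr1 had 1, 12, 24 and 76 counts in CTRL 1 to 4 and 8, 0, 0 and 8 in Isl1_hypo 1 to 4 (adjusted p = 0.611, edgeR without the filter). In the opposite direction, the chemokine gene Ccl4 had 0 counts in the 4 CTRL libraries and 0, 5, 0 and 8 in Isl1_hypo 1 to 4 (unadjusted p = 0.028, adjusted p = 0.382, edgeR without the filter). Timd4, a receptor for dying cells, had 35 counts in Isl1_hypo 3 and at most 10 in any other library (adjusted p = 0.561, edgeR without the filter). At an unadjusted p under 0.05, 2 of the 22 genes were lower and 1 was higher (5.95% and 4.97% of all genes), and 0 had an adjusted p under 0.05 in this fit.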
